A study of Homo sapiens with 15 samples.

Results

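The genes described here are 10 members of the insulin-like growth factor (IGF) system: the ligand gene IGF2, the receptor genes IGF1R and IGF2R, the adaptor gene IRS1 and the binding protein genes IGFBP2, IGFBP3, IGFBP4, IGFBP5, IGFBP6 and IGFBP7. They were chosen by symbol from a gene count table of 37787 genes, and all 10 were found there. All 10 passed the filter on low counts, together with 13868 genes in all. RNA was sequenced from HGrC1 cells, an immortalized human granulosa cell line that is not luteinized and carries normal FOXL2 alleles.

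The 15 libraries made up 5 conditions of 3 libraries each, named replicates A, B and C. Vectors cells received empty plasmids. FOXL2WT cells received plasmids for wild-type FOXL2, a forkhead transcription factor of granulosa cells, and for SMAD3, a mediator of TGF-beta signalling. FOXL2C134W cells received SMAD3 and FOXL2 with C134W, the substitution found in adult granulosa cell tumors. FOXL2WT+FOXO1 and FOXL2C134W+FOXO1 cells further received FOXO1-3A, a form of FOXO1 altered to stay constitutively active. All cells were at passage 14, were transfected transiently for 4 h with a lipid reagent and were then kept for 24 h without serum before RNA extraction. SMAD3 was absent from the plasmids of Vectors only, so a difference from Vectors cannot be told apart between FOXL2 and SMAD3. No label names the replicates as separate cultures, so the p-values measure the spread between these libraries, which may be technical.

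IGF2 and its relative IGF1 are secreted growth factors that signal through IGF1R, a receptor tyrosine kinase, and IRS1 links the activated receptor to PI3K, AKT and mTOR. IGF2R takes IGF2 up for lysosomal breakdown and is not a signalling kinase. The binding proteins are secreted, hold IGFs outside the cell and are cut by proteases such as PAPPA. In the ovary, IGFs act with FSH on granulosa cell growth and steroid synthesis, and loss of IGFBP4 to PAPPA is a known feature of the maturing follicle.

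Library totals ran from 14962245 to 25339094 estimated counts. The unit of level is CPM, counts relative to library size, which serve to compare a gene between conditions, or TPM, transcript levels per transcript length, which serve to compare genes with each other. Transcripts of FOXL2 and SMAD3 were higher wherever their plasmids had been given, but gene counts cannot tell the wild-type form of FOXL2 from C134W, so the labelled form was not checked. FOXL2 was at 8.28 to 9.54 CPM in Vectors, 554 to 566 in FOXL2WT, 121 to 175 in FOXL2C134W, 374 to 401 in FOXL2WT+FOXO1 and 139 to 176 in FOXL2C134W+FOXO1. The mean level of SMAD3 was 249 CPM in Vectors, 2768 in FOXL2WT, 843 in FOXL2C134W, 969 in FOXL2WT+FOXO1 and 392 in FOXL2C134W+FOXO1. The mutant and wild-type conditions therefore also differed in the amount of both transcripts, and the part of dose in the results was not tested. These are RNA levels. By immunoblot of cells cultured in parallel, the paper reports balanced protein for both forms of FOXL2 and for FOXO1, and it describes no SMAD3 protein. Of the granulosa markers GATA4 was at 71.1 to 93.2 TPM, WT1 at 23.5 to 114 TPM and FST at 25.01 to 33.7 TPM, whereas FSHR had 0 counts in all 15 libraries and CYP19A1 and INHA had 0 to 4 counts. Of the epithelial list KRT7, KRT8, KRT18 and KRT19 had medians of 2751, 2366, 1759 and 392 TPM, EPCAM of 6.98 TPM and CDH1 of 0.136 TPM. Of the stromal list COL1A1 had a median of 440 TPM and COL3A1 of 35.9 TPM, whereas COL1A2 had 5 to 33 counts and DCN 1 to 5. Of the immune list CD68 had a median of 106 TPM, whereas PTPRC had 0 to 5 counts and CD3E 0 to 1. As these are bulk samples, fewer cells expressing a gene and less RNA per cell cannot be told apart.

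Sequences before the transcription start are shown for the 3 genes whose 12 libraries with FOXL2 and SMAD3 all lay on one side of the Vectors libraries, IGFBP6, IGFBP5 and IRS1. They follow RefSeq, build GRCh38.p14, and are written 5′ to 3′ on the strand of the gene. For IGFBP5 (chr2:216695550-216695799, minus strand) and IRS1 (chr2:226799821-226800070, minus strand) they are the 250 bases before the start. For IGFBP6 (chr12:53097470-53097499, plus strand) they are 30 bases around GTAAACA, the forkhead core motif, which is marked in capitals.
IGFBP6: caatttgggaaGTAAACAgaaactggaaag
IGFBP5: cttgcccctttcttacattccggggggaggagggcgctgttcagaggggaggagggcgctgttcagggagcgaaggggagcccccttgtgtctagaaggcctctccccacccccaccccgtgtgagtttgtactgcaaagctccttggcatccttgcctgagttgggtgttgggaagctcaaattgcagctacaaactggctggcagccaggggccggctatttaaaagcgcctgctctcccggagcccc
IRS1: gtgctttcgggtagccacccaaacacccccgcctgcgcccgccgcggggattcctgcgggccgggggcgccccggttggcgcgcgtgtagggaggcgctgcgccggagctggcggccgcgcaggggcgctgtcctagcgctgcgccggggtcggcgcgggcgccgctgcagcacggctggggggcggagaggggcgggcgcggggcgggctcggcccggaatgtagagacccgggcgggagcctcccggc

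The RefSeq promoter table, whose windows also include 50 bases after the start, held 8 of the 10 genes, with no entry for IGF2 and IGFBP7. The forkhead letters GTAAACA or their reverse complement TGTTTAC occurred in 1 of these 8 genes, IGFBP6, 186 bases before its RefSeq start at position 53097667, and in 3.42% of all 35116 promoters. The annotations disagree here, since GENCODE 44 starts the transcript IGFBP6-203 at 53097436 and places the match inside its 5′ UTR. The SMAD letters CAGAC or GTCTG, which do not overlap the forkhead match, occurred in IGFBP2 alone among the 8 genes and in 45.3% of all promoters. A match describes letters in this window and is no evidence of binding.

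By level per length the binding proteins spanned the widest range. IGFBP7, a secreted protein with low affinity for IGFs, had a median of 1572 TPM over the 15 libraries. It was followed by IGFBP4 at 194 TPM, IGFBP6 at 152 TPM and IGFBP2 at 80.0 TPM. IGFBP3, the main carrier of IGFs in serum, and IGFBP5, which also binds extracellular matrix, both had medians of 12.8 TPM. IGFBP7 alone held 77.3% of the summed TPM of the 6 binding proteins, with a range of 74.9% to 78.5%. A non-coding transcript, IGFBP7-202, was assigned from 0% to 39.7% of the IGFBP7 TPM, depending on the library. Its mean share was 30.35% in Vectors, 11.59% in FOXL2WT and 20.65% in FOXL2C134W. With FOXO1 it was 2.88% in FOXL2WT+FOXO1 and 7.31% in FOXL2C134W+FOXO1. These levels per length were therefore not tested between conditions.

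The receptors lay well below the main binding proteins. IGF1R had a median of 23.2 TPM and IGF2R of 21.8 TPM. Protein-coding transcripts held a median of 22.2% of the IGF1R TPM but 91.3% of its estimated reads, because several short non-coding transcripts were assigned TPM, so its level per length is uncertain. For IGF2R the coding shares were 55.0% of the TPM and 71.8% of the reads, and a single retained-intron transcript of 6468 bases, IGF2R-206, held a median of 44.1% of the TPM. IRS1 had a median of 2.62 TPM. IGF2 was the lowest member with a median of 1.09 TPM from 41 to 127 counts per library, so its values carry more counting error than the others. The other ligands were at or near the detection limit, with 0 to 4 counts for IGF1 and 0 for INS in every library, a count that allows up to 3.

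**Figure D1:**
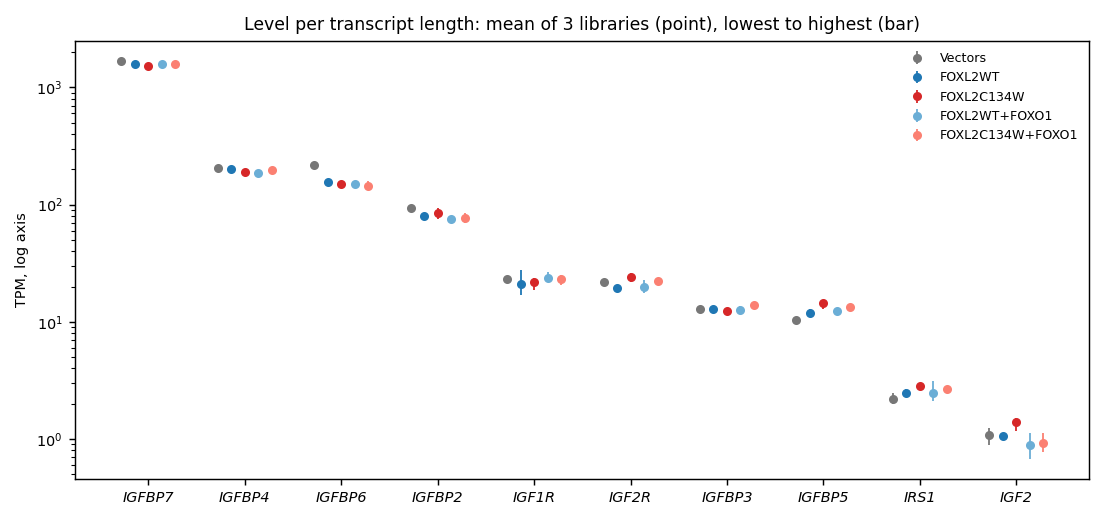
Level of each gene in TPM (log axis) by condition; points are the mean of 3 libraries and bars run from the lowest to the highest library. IGFBP7 lies near 1572 TPM and IGF2 near 1.09 TPM, and for most genes the conditions differ far less than the genes do.

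Across conditions the differences were small. The ratio of the highest to the lowest condition mean was 1.51 for IGF2, 1.45 for IGFBP6, 1.37 for IGFBP5 and 1.28 for IRS1, and it lay between 1.098 and 1.151 for the other 6 genes. FOXL2C134W had the highest mean of the 5 conditions for IGF2, IGF1R, IGF2R, IRS1 and IGFBP5. It had the lowest mean for IGFBP2, IGFBP3, IGFBP4, IGFBP6 and IGFBP7. Its libraries lay apart from those of the next condition for IGF1R, IGFBP3 and IGFBP4 only. The share of all genes with such an extreme mean in FOXL2C134W was not computed. Mean transcript lengths were 2997 to 9913 bases in the set with the highest means and 931 to 2311 bases in the other set, and length is described below.

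**Figure D2:**
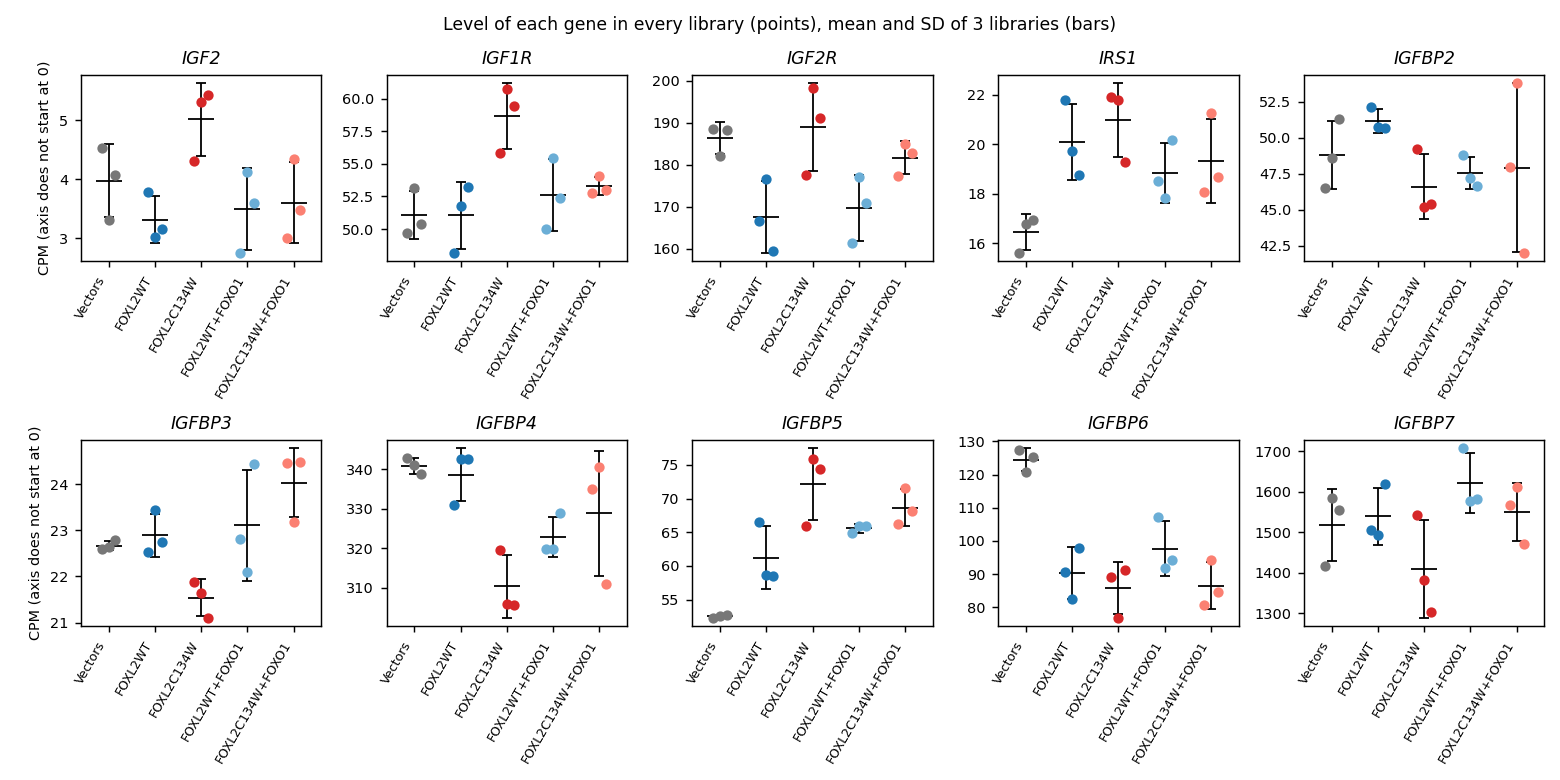
CPM of each gene in every library; coloured points are the 3 libraries of a condition and bars show the mean ± SD. IGFBP6 is above 120 CPM in Vectors and at most 107 CPM elsewhere, whereas IGFBP5 is at most 52.7 CPM in Vectors and at least 58.5 CPM elsewhere.

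Among the called genes IGFBP6 had the largest log2 difference from Vectors in both FOXL2WT and FOXL2C134W. The gene lies on the plus strand of chromosome 12 at positions 53097436 to 53102345 (GRCh38, GENCODE 44), with no other annotated gene over it, and its product binds IGF2 in preference to IGF1. Its level was 128, 121 and 125 CPM in the Vectors libraries A, B and C. It was 90.7, 82.4 and 98.0 CPM in FOXL2WT and 89.1, 76.8 and 91.4 CPM in FOXL2C134W. Every library of both conditions was below every Vectors library. With FOXO1 the values were 107, 91.8 and 94.1 CPM in FOXL2WT+FOXO1 and 80.7, 94.3 and 84.6 CPM in FOXL2C134W+FOXO1, again below all Vectors libraries. All 12 libraries lay below the 3 Vectors libraries for 4.04% of all genes tested. By the edgeR quasi-likelihood test with Benjamini-Hochberg adjustment over all genes, IGFBP6 fell by 0.46 on the log2 scale in FOXL2WT (SE 0.075, adjusted p = 0.00114). It fell by 0.54 in FOXL2C134W (SE 0.075, adjusted p = 9.01e-05). FOXL2C134W and FOXL2WT did not differ detectably for IGFBP6, with a log2 difference of -0.08 and a 95% interval from -0.24 to 0.08.

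IGFBP5 moved the other way. It lies on the minus strand of chromosome 2 at positions 216672105 to 216695549, 7668 bases from IGFBP2 and transcribed toward it. A single transcript of 6239 bases held all of its TPM. The Vectors libraries were at 52.3, 52.6 and 52.7 CPM. FOXL2WT libraries were at 66.6, 58.6 and 58.5 CPM and FOXL2C134W libraries at 66.0, 75.9 and 74.4 CPM. Replicate A of FOXL2WT lay above replicate A of FOXL2C134W, and no library of either condition reached down to Vectors. The means of the FOXO1 conditions lay between those of FOXL2WT and FOXL2C134W, with libraries at 64.9, 66.0 and 66.0 CPM in FOXL2WT+FOXO1 and at 66.2, 71.7 and 68.2 CPM in FOXL2C134W+FOXO1. For 3.14% of all genes tested the 12 libraries all lay above the Vectors libraries, as they did for IGFBP5 and IRS1. IGFBP5 rose 1.17-fold in FOXL2WT (log2 0.22, SE 0.059, adjusted p = 0.0332 by edgeR). It rose 1.37-fold in FOXL2C134W (log2 0.46, SE 0.058, adjusted p = 3.92e-05), and it was 1.18-fold higher in FOXL2C134W than in FOXL2WT (log2 0.23, SE 0.058, adjusted p = 0.0131).

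IRS1, on the minus strand of chromosome 2 at positions 226731312 to 226799820, was also lowest in Vectors. Its Vectors libraries were at 15.6, 16.8 and 17.0 CPM. The FOXL2WT libraries were at 21.8, 19.7 and 18.8 CPM and the FOXL2C134W libraries at 21.9, 21.8 and 19.3 CPM. Neither condition overlapped Vectors, while the mutant and wild-type libraries overlapped each other. IRS1 rose 1.28-fold in FOXL2C134W (log2 0.35, SE 0.082, adjusted p = 0.00679 by edgeR). In FOXL2WT its log2 difference was 0.29, which missed the threshold with an adjusted p of 0.0514.

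Of the 10 genes, 1 was called higher (IGFBP5) and 1 lower (IGFBP6) in FOXL2WT against Vectors, where 6.07% of all genes tested were called, 2.46% higher and 3.61% lower. Among the other 8 genes the log2 differences ran from -0.26 to 0.29. The 3 libraries of each condition did not overlap for 4 of the 10 genes, IGF2R, IGFBP5, IGFBP6 and IRS1, and for 31.1% of all genes. The median log2 difference was 0.01 over the 10 genes and 0.00 over all genes. IGFBP5 was called after leaving out FOXL2WT replicate C, but not after leaving out any other of the 6 libraries (Vectors replicates A, B or C, or FOXL2WT replicates A or B), where its log2 difference was 0.16 to 0.25 and its adjusted p 0.0602 to 0.183.

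In FOXL2C134W against Vectors, 3 genes were called higher (IGF1R, IRS1 and IGFBP5) and 2 lower (IGFBP4 and IGFBP6), against 14.7% of all genes tested, 7.48% higher and 7.24% lower. The libraries did not overlap for 6 of the 10 genes, which were the 5 called and IGFBP3, and for 31.8% of all genes. The log2 differences of the 5 genes not called ran from -0.11 to 0.33, and the median over the 10 genes was -0.02, against 0.00 over all genes. IGF1R is described with the mutant contrast. IGFBP4 was at 343, 341 and 339 CPM in Vectors and at 320, 306 and 306 CPM in FOXL2C134W. It fell by 0.14 on the log2 scale (SE 0.038, adjusted p = 0.020 by edgeR), to 0.910 of its level in Vectors. IGFBP4 was no longer called without Vectors replicate A, B or C or without FOXL2C134W replicate B or C, with log2 differences from -0.14 to -0.12 and adjusted p from 0.0632 to 0.107. These comparisons share the Vectors libraries with those of FOXL2WT.

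The comparison of FOXL2C134W with FOXL2WT sets the mutant against the wild-type form of FOXL2 beside SMAD3. The transcript levels of FOXL2 and SMAD3 also differed there. Here 4 of the 10 genes were called higher (IGF2, IGF1R, IGF2R and IGFBP5) and 1 lower (IGFBP4), where 11.2% of all genes tested were called, 7.13% higher and 4.12% lower. The ligand and both receptors were thus among the genes higher with the mutant. The log2 differences of the 5 genes not called ran from -0.13 to 0.07. The median over the 10 genes was -0.01, as it was over all genes.

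IGF2, on the minus strand of chromosome 11 at positions 2129112 to 2158391, had the largest difference and the lowest level. Its libraries were at 3.78, 3.02 and 3.16 CPM in FOXL2WT and 4.31, 5.31 and 5.44 CPM in FOXL2C134W, and the conditions did not overlap. IGF2 was 1.5-fold higher in FOXL2C134W (log2 0.59, SE 0.17, adjusted p = 0.0353 by edgeR). The readthrough gene INS-IGF2 and the antisense gene IGF2-AS overlap it in the annotation, and reads could have been split among them. Against Vectors, at 4.54, 3.31 and 4.08 CPM, neither condition was called for IGF2.

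IGF1R lies on the plus strand of chromosome 15 at positions 98648539 to 98964530. Its level was 49.7, 53.2 and 50.4 CPM in Vectors and 48.2, 51.8 and 53.2 CPM in FOXL2WT. In FOXL2C134W it was 55.9, 60.8 and 59.4 CPM, above all other libraries of the series. IGF1R was 1.15-fold higher than in FOXL2WT (log2 0.20, SE 0.053, adjusted p = 0.0204) and 1.15-fold higher than in Vectors (log2 0.20, SE 0.053, adjusted p = 0.0139). IGF2R, on the plus strand of chromosome 6 at positions 159969082 to 160113507 and overlapped by the antisense gene AIRN, was at 167, 177 and 160 CPM in FOXL2WT and 178, 198 and 191 CPM in FOXL2C134W. The lowest mutant library lay just above the highest wild-type library. IGF2R was 1.13-fold higher in FOXL2C134W (log2 0.17, SE 0.048, adjusted p = 0.0237), while its Vectors libraries, at 189, 182 and 188 CPM, lay within the range of the mutant.

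IGFBP4, on the plus strand of chromosome 17 at positions 40443450 to 40457725, was at 331, 343 and 343 CPM in FOXL2WT, all above the FOXL2C134W libraries. It was lower in FOXL2C134W by 0.13 on the log2 scale (log2 -0.13, SE 0.038, adjusted p = 0.0378). IGFBP2 and IGFBP3 did not overlap between the conditions either, with values of 50.7 to 52.1 against 45.2 to 49.2 CPM and of 22.5 to 23.4 against 21.1 to 21.9 CPM, but neither was called. In all, 6 of the 10 genes did not overlap, against 30.4% of all genes. IGFBP7 was at 1492 to 1620 CPM in FOXL2WT and 1303 to 1541 CPM in FOXL2C134W, and these ranges overlapped. In the annotation IGFBP2 lies on the plus strand of chromosome 2 at positions 216632828 to 216664436 and IGFBP3 on the minus strand of chromosome 7 at 45912245 to 45921874. IGFBP7 lies on the minus strand of chromosome 4 at 57030773 to 57110385, overlapped by POLR2B and IGFBP7-AS1 on the other strand.

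**Figure D3:**
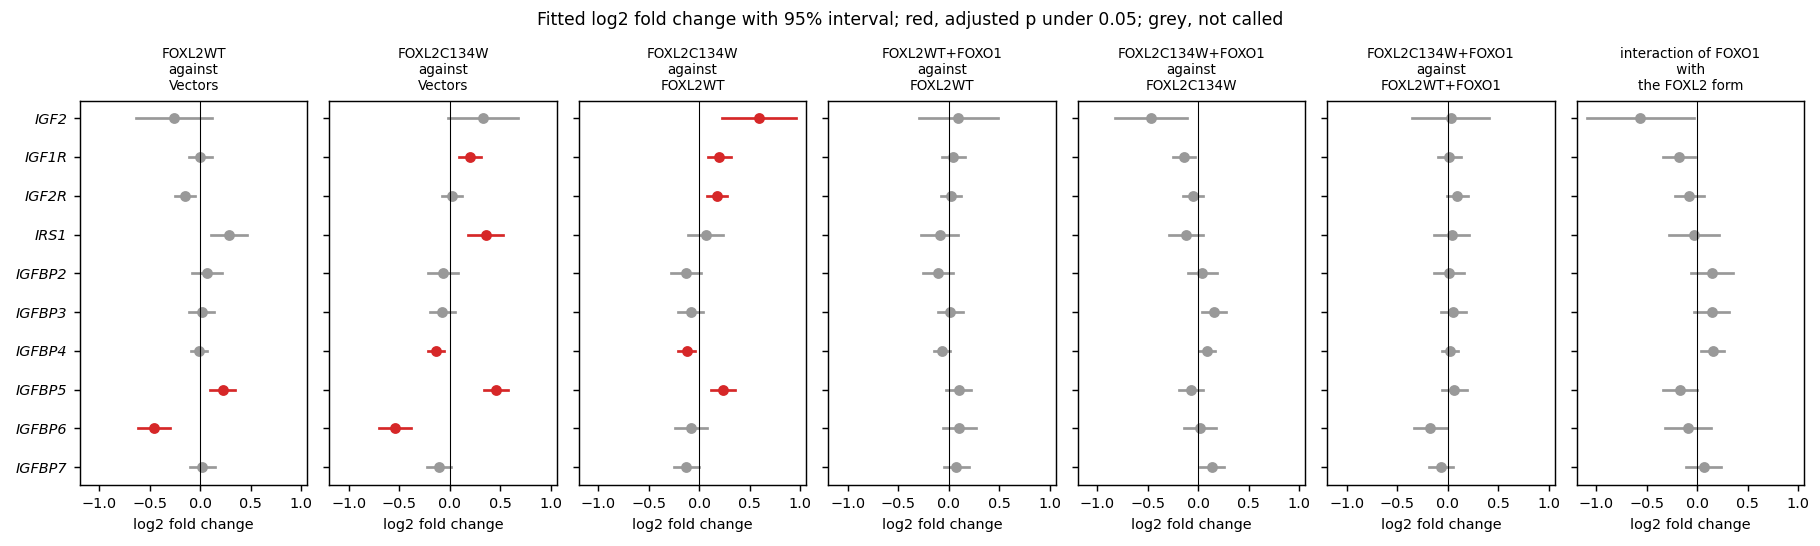
Fitted log2 fold change of each gene (x axis) with its 95% interval in the 6 comparisons and for the interaction; red marks an adjusted p under 0.05 and grey the rest. Calls stand in the first 3 panels only, 2, 5 and 5 in number, and none in the 4 panels that involve FOXO1.

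For each of the 5 genes called, replicate A of FOXL2C134W was the mutant library nearest to FOXL2WT, and all 5 stayed called without it. This library stood apart over all genes too. Chi-square per degree of freedom of the counts was 7.81 against replicate B and 8.84 against C, and 2.60 between B and C. Without replicate A 2120 of all genes were called, in place of 1560. Leaving out single other libraries ended calls, and over all genes 772 to 1132 were then called. IGF2 was lost without FOXL2WT replicate B or C or FOXL2C134W replicate B or C (log2 0.53 to 0.55 in these 4 omissions, adjusted p up to 0.128), and IGFBP5 without the same 4 (0.20 to 0.21, up to 0.0723). IGF1R was lost without FOXL2WT replicate A or FOXL2C134W replicate B or C (0.16 to 0.19, up to 0.108), and IGF2R without FOXL2WT replicate A or C or FOXL2C134W replicate B or C (0.15 to 0.17, up to 0.122). IGFBP4 was lost without FOXL2WT replicate A, B or C or FOXL2C134W replicate B or C (-0.14 to -0.11, up to 0.181). Against Vectors, IGF1R was lost without Vectors replicate A or C or FOXL2C134W replicate B (0.18 to 0.20, up to 0.0661). IRS1, IGFBP6 and IGFBP5 in FOXL2C134W and IGFBP6 in FOXL2WT stayed called without any single library.

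Transcript length moved with the comparison of FOXL2C134W and FOXL2WT. Over all genes tested the median log2 difference was -0.08 in the 3466 genes with the shortest transcripts (up to 1381 bases) and 0.08 in the 3466 with the longest (from 3298 bases). It was -0.04 and 0.01 in the groups of equal size between them. Genes called higher had mean transcript lengths of 2997 bases (IGF1R), 4496 bases (IGF2), 6239 bases (IGFBP5) and 9913 bases (IGF2R), and IGFBP4 had 2205 bases. With an offset for gene length in the fit, chosen after seeing the data, IGF1R (log2 0.17) and IGFBP4 (-0.12) stayed called. IGF2 was at 0.50 and IGFBP5 at 0.09 without a call, and IGF2R changed sign to -0.050. The length used for IGF1R was weighted by TPM, of which coding transcripts held a median of 22.2%, against 91.3% of its reads. Its coding transcript IGF1R-217 has 12235 bases, so the gene length offset may not suit IGF1R. The same holds for the transcript length offsets in DESeq2, which weight lengths by TPM in each library. The retained-intron transcript IGF1R-212 of 343 bases held from 0% to 40.4% of the IGF1R TPM. With transcript length offsets in DESeq2, IGF2R was at 0.28 and stayed called, while IGF1R was at 0.04 and IGF2 at 0.37 (adjusted p = 0.411) and neither was called. In FOXL2C134W against Vectors the same offsets in DESeq2 took IGF1R to -0.095. IGFBP5 and IGFBP6 kept their direction and call in that comparison under both, with log2 differences of 0.37 and -0.49 with the gene length offset. IRS1, with transcripts of 9057 bases on average, was at 0.22 in FOXL2C134W against Vectors with the gene length offset and was not called.

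**Figure D4:**
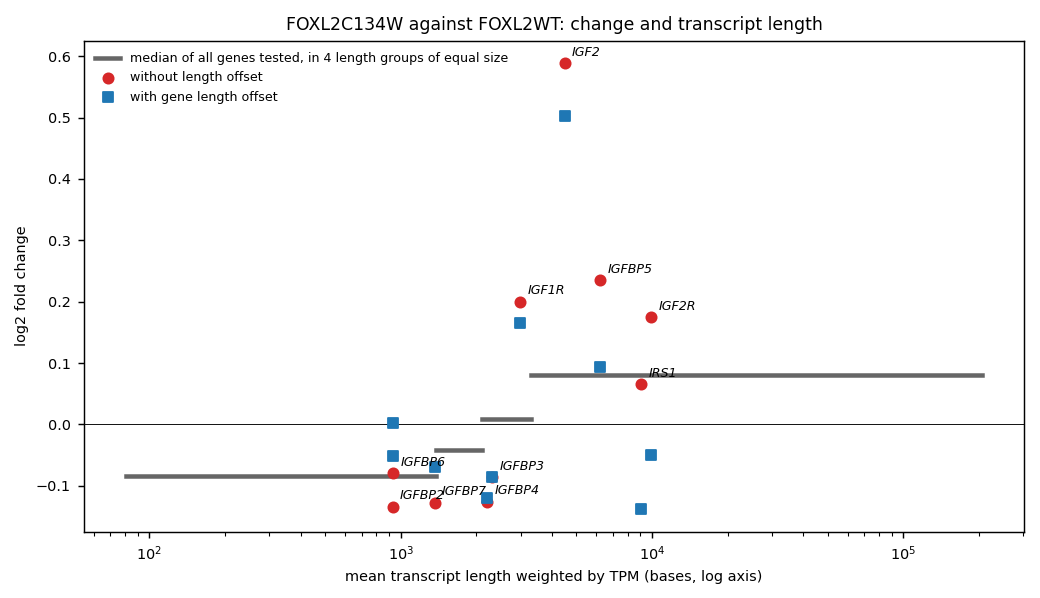
Log2 fold change of each gene in FOXL2C134W against FOXL2WT by mean transcript length in bases (log axis), without (red circles) and with (blue squares) an offset for gene length; grey lines are medians of all genes in 4 length groups of equal size. The medians run from -0.08 to 0.08, and the offset moves IGF2R from 0.17 to -0.050.

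FOXO1 was added to either form of FOXL2 to learn how it alters their effects. The mean FOXO1 level was 117 CPM in FOXL2WT+FOXO1 and 43.2 CPM in FOXL2C134W+FOXO1, against 12.2 CPM in FOXL2WT and 11.99 CPM in FOXL2C134W. Mean SMAD3 was lower with FOXO1, at 969 against 2768 CPM beside wild-type FOXL2 and 392 against 843 CPM beside C134W. Mean FOXL2 was at 384 against 561 CPM with the wild-type form and at 152 against 147 CPM with C134W. The part of these gaps in the results was not tested, and added FOXO1 cannot be told apart from the lower SMAD3. In FOXL2WT+FOXO1 against FOXL2WT, 0 of the 10 genes were called by edgeR, 0 had an unadjusted p under 0.05 and 0 were called by DESeq2. DESeq2 gave an adjusted p to 6071 of the 13868 genes there, and a gene without one counts as not called. In the other comparisons with FOXO1, and for the interaction, it gave one to 10641 to 11986 genes. By edgeR 0.0505% of all genes were called and 9.13% had an unadjusted p under 0.05. The log2 differences ran from -0.11 to 0.11. IGFBP2 and IGFBP4 did not overlap between these conditions, which held for 14.5% of all genes.

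In FOXL2C134W+FOXO1 against FOXL2C134W, 0 of the 10 genes were called by edgeR and 0 by DESeq2, where 0.714% of all genes were called. An unadjusted p under 0.05 was found for 5 of the 10 genes, named here after their values were seen, and for 11.2% of all genes. The log2 difference was -0.14 for IGF1R (adjusted p = 0.284), -0.47 for IGF2 (adjusted p = 0.255) and 0.16 for IGFBP3 (adjusted p = 0.262). It was 0.08 for IGFBP4 (adjusted p = 0.412) and 0.14 for IGFBP7 (adjusted p = 0.360). IGF1R libraries were at 52.8, 54.1 and 53.0 CPM with FOXO1, below all 3 FOXL2C134W libraries. IGFBP3 libraries were at 24.5, 23.2 and 24.5 CPM, above the mutant libraries at 21.9, 21.7 and 21.1 CPM. These were the 2 genes whose libraries did not overlap, which held for 14% of all genes. IGF2 was at 3.0, 4.35 and 3.48 CPM, and replicate B overlapped the mutant range.

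The effect of FOXO1 was not shown to differ between the forms of FOXL2 for any of the 10 genes. In the interaction, the change with FOXO1 in FOXL2C134W minus that in FOXL2WT, 0 were called by edgeR and 0 by DESeq2, against 1.38% of all genes. An unadjusted p under 0.05 was found for IGF1R (log2 -0.18, adjusted p = 0.305), IGF2 (-0.56, adjusted p = 0.359) and IGFBP4 (0.15, adjusted p = 0.207), that is 3 of the 10 genes, and for 12.5% of all genes. The 95% interval for IGF2 ran from -1.09 to -0.03, so differences of very different size remain possible at this depth.

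In FOXL2C134W+FOXO1 against FOXL2WT+FOXO1, 0 of the 10 genes were called by edgeR and 0 by DESeq2, where 0.144% of all genes were called. The log2 differences ran from -0.17 for IGFBP6, the 1 gene with an unadjusted p under 0.05 (adjusted p = 0.336), to 0.10 for IGF2R, and 13.5% of all genes had such a p. IGF2R and IGFBP5 did not overlap between these conditions, against 15.2% of all genes. For IGF2R the libraries were at 162, 177 and 171 CPM in FOXL2WT+FOXO1 and at 177, 185 and 183 CPM in FOXL2C134W+FOXO1. The 95% intervals of the mutant difference with FOXO1 were -0.35 to 0.41 for IGF2, -0.10 to 0.13 for IGF1R and -0.06 to 0.19 for IGFBP5.

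A list of 51 other genes of the pathway, from ligands to mTOR, had 45 genes that could be tested. In FOXL2WT against Vectors 2 were higher and 1 lower, or 6.67% against 6.07% of all genes. STC2, which inhibits PAPPA, rose by 0.40 on the log2 scale (adjusted p = 1.50e-05). EIF4EBP1, a translational repressor controlled by mTOR, rose by 0.50 (adjusted p = 0.00115). STC1, the other PAPPA inhibitor, fell by 0.86 (adjusted p = 0.00235).

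In FOXL2C134W against Vectors 6 of the 45 genes were higher and 3 lower, or 20% against 14.7% of all genes. STC2 rose by 0.45 (adjusted p = 1.47e-06) and STC1 fell by 0.89 (adjusted p = 0.000554), so the 2 inhibitors moved in opposite directions in both comparisons. The adaptor gene IRS2 rose by 0.54 (adjusted p = 9.55e-05). The median log2 difference over the 45 genes was 0.03, against 0.00 over all genes. PAPPA itself was at 3.88 to 6.89 TPM over the 15 libraries, far below STC2 at 283 to 454 TPM. STC1 was lower still, at 1.06 to 3.35 TPM from 53 to 232 counts per library.

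In FOXL2C134W against FOXL2WT 6 of the 45 genes were higher and 1 lower, or 15.6% against 11.2% of all genes. RPTOR, the scaffold of the mTOR complex that senses nutrients, rose by 0.38 (adjusted p = 0.000405). IGF2BP2, which binds the IGF2 mRNA, rose by 0.28 (adjusted p = 0.00156), and IRS2 rose by 0.35 (adjusted p = 0.00605). The median over the 45 genes was 0.03, against -0.01 over all genes. With FOXO1, RPTOR was the 1 gene called: it fell by 0.26 in FOXL2C134W+FOXO1 against FOXL2C134W (adjusted p = 0.0348), and its interaction was -0.34 (adjusted p = 0.0475). Of all genes 0.714% and 1.38% were called there, or 99 and 192 genes. Calls among the 45 genes were not rechecked with other settings or without single libraries. Over all genes, calls against FOXL2C134W fell to 5 without FOXL2C134W replicate B or C or FOXL2C134W+FOXO1 replicate C. They fell to 11 without FOXL2C134W+FOXO1 replicate A. They rose to 355 without FOXL2C134W replicate A and to 231 without FOXL2C134W+FOXO1 replicate B. For the interaction single omissions gave 45 to 423. None of the 45 genes was called by edgeR in FOXL2WT+FOXO1 against FOXL2WT, where 3 had an unadjusted p under 0.05 (6.67% against 9.13% of all genes), or in FOXL2C134W+FOXO1 against FOXL2WT+FOXO1, where 8 did (17.8% against 13.5%).

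**Figure D5:**
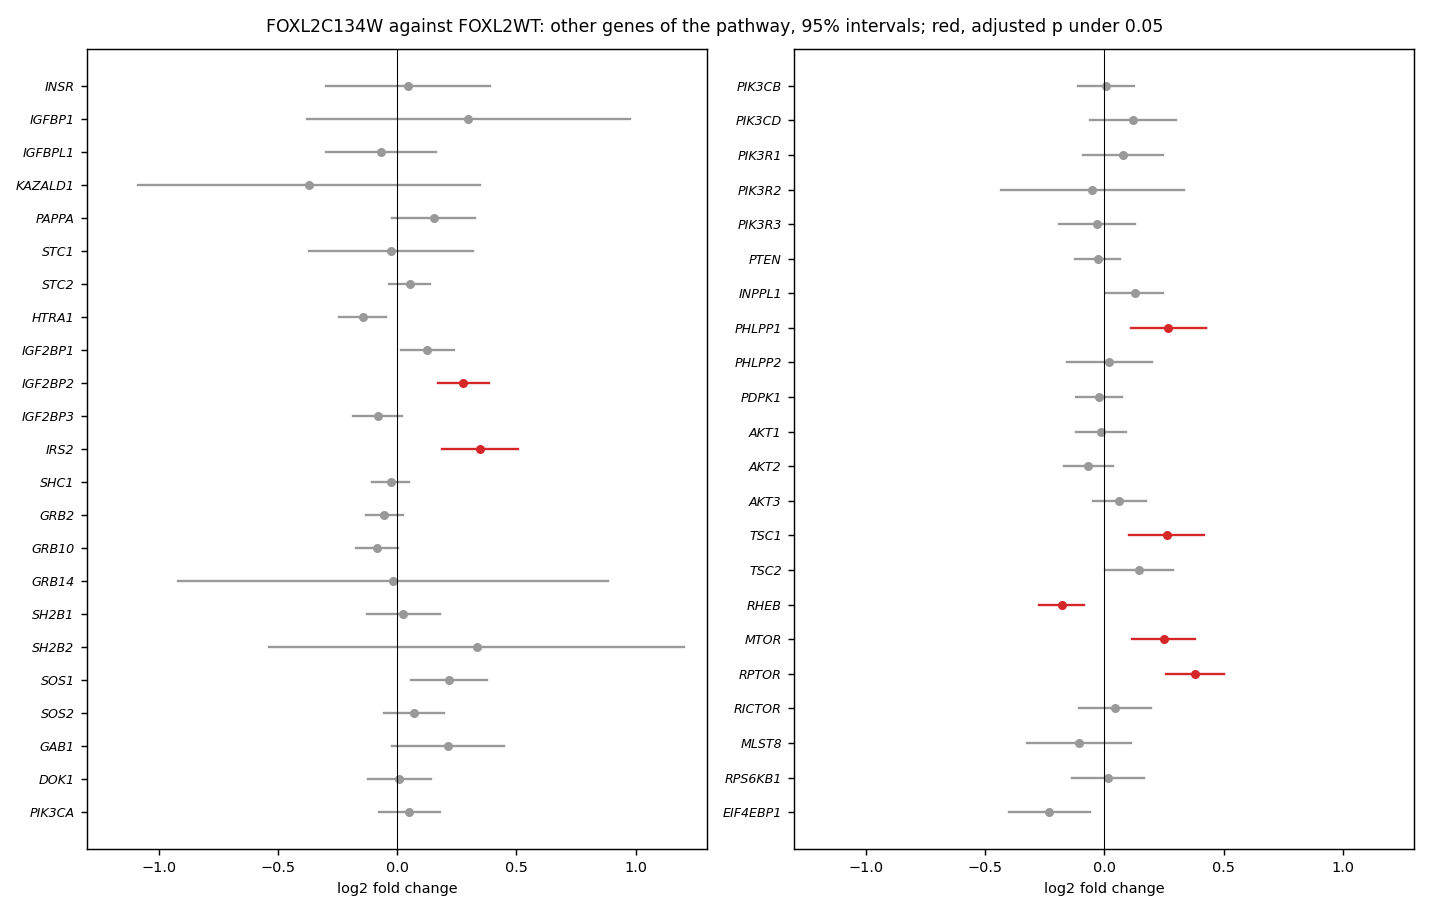
Log2 fold change (x axis) of the 45 other pathway genes in FOXL2C134W against FOXL2WT with 95% intervals; red marks an adjusted p under 0.05. The 6 red genes to the right of 0 and the 1 to the left stand among intervals that mostly include 0.

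Over the 15 libraries the levels of IGFBP5 and IGFBP6 ran opposite to each other, with a Pearson r of log2-CPM of -0.78. IGF2 and IGF2R had an r of 0.74, and IRS1 and IGFBP5 one of 0.73. Of all genes tested the pattern of IGFBP6 was most like those of S100A6 (r = 0.95) and CTSB (r = 0.95). That of IGFBP5 was most like TGFB2 (r = 0.94) and THBS1 (r = 0.92), that of IRS1 most like THBD (r = 0.95) and SLC7A1 (r = 0.90), and that of IGF1R most like ZFHX3 (r = 0.90) and KMT2D (r = 0.89). IGF2 was closest to BAZ2A (r = 0.92) and MAML1 (r = 0.91), IGF2R to LAMC1 (r = 0.93) and HTT (r = 0.93), and IGFBP4 to GLO1 (r = 0.89) and METTL23 (r = 0.85). These points share libraries, depth and conditions, so the correlations describe these 15 libraries and carry no test.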

How the data were processed

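RNA from 15 HGrC1 libraries (TruSeq stranded mRNA, 75-bp single-end reads) was quantified by the authors with Salmon 1.1.0 on hg38 transcripts with GENCODE identifiers. The GENCODE release and the strand setting are not given in the sources used here. The authors summed the estimated counts to 37787 genes and deposited them rounded and not normalized. The deposited transcript tables hold TPM, transcript lengths and estimated counts for 227063 transcripts per library, of which 98.4% were found in GENCODE 44. For all 10 genes the summed transcript reads were within 1 count of the gene table.

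Groups and replicate letters were taken from the labels. All 15 libraries were fitted together in edgeR 4.0.16 (R 4.3.3, limma 3.58.1) with 1 term per condition, filterByExpr, TMM scaling and the quasi-likelihood test, two-sided. A gene was called where its p, adjusted by Benjamini-Hochberg over 13868 genes, was under 0.05. CPM are TMM-scaled, and log2-CPM had a prior count of 2. Fits were tested on simulated data. Tables were made with pandas 2.3.3 and figures with matplotlib 3.10.9, both under Python 3.11.15.

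The 10 genes and the lists of 51 pathway genes and of cell type markers were chosen with earlier results of these data known. Fold changes are given for called members, for up to 3 called pathway genes with the smallest adjusted p per comparison and, for likeness, the 2 genes with the highest Pearson r per called member. Members with an unadjusted p under 0.05 or libraries that did not overlap were named after their values were seen. Alternatives were DESeq2 1.42.0, DESeq2 with transcript length offsets, its size factors, filters of at least 1 count in any library and at least 10 counts in every library, a replicate block, only the libraries compared and leaving out each library. Offsets for gene length and GC content (lowess span 0.3) were chosen after seeing the data.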

Additional observations from a re-analysis of the deposited data

How the results depend on the processing

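The 12 calls among the 10 genes were recomputed under 9 alternatives that kept all libraries, and 97 of these 108 values stayed past the threshold. Without single libraries 39 of 72 did. IGFBP6 in both comparisons with Vectors and IGFBP5 in FOXL2C134W against Vectors passed it in every alternative. The direction turned for IGF1R in FOXL2C134W against Vectors (-0.095, DESeq2 with transcript length offsets) and for IGF2R in FOXL2C134W against FOXL2WT (-0.050, gene length offset). In FOXL2WT against Vectors 1 gene was higher and 1 lower. DESeq2, the filter of at least 1 count, only the libraries compared and the GC content offset each gave 2 higher and 2 lower (IRS1 and IGF2R added). The filter of at least 10 counts and the gene length offset gave 2 higher, and DESeq2 with transcript length offsets gave 0 higher. Without single libraries 0 to 1 were higher. The number called over all genes moved too, from 842 in the main fit to 496 with transcript length offsets in DESeq2. It was 1006 in DESeq2, 1345 with at least 1 count and 941 with at least 10. Only the libraries compared gave 1690, the gene length offset 1136, the GC content offset 1207 and single omissions 305 to 662. With a replicate block 2 were lower and 1 higher in that comparison, and no other count of members changed. In FOXL2C134W against Vectors DESeq2 with transcript length offsets gave 1 higher in place of 3 (IGF1R and IRS1 lost). Without single libraries 1 to 3 were lower in place of 2. Over all genes these offsets called 971 of 13056 and single omissions 1275 to 2126, against 2041 of 13868 in the main fit. In FOXL2C134W against FOXL2WT, in place of 4 higher, DESeq2 with transcript length offsets gave 2, the gene length offset 1 and single omissions 0 to 4. Over all genes these called 764 of 11982, 1489 of 13863 and 772 to 2120, against 1560 of 13868 in the main fit. In place of 1 lower, only the libraries compared gave 0 and single omissions 0 to 2, and the filter of at least 1 count called IGFBP7 in place of IGFBP4 (adjusted p = 0.0767). In FOXL2C134W+FOXO1 against FOXL2C134W the filter of at least 1 count gave 1 higher (IGFBP7) in place of 0. That filter called 463 of 22745 genes in all, against 99 of 13868 in the main fit. The cause was not tested. Same-letter libraries did not deviate together (r from -0.16 to 0.17 over 30 pairs), 5 of 15 correlated best with their own letter, and the letters were not taken as pairs. Over all genes, DESeq2 called 62 in FOXL2WT+FOXO1 against FOXL2WT (7 by edgeR) and 223 in FOXL2C134W+FOXO1 against FOXL2C134W (99). It called 95 in FOXL2C134W+FOXO1 against FOXL2WT+FOXO1 (20) and 365 for the interaction (192). With transcript length offsets these were 69, 61, 65 and 126. Without FOXO1, DESeq2 called 1006 in FOXL2WT and 2056 in FOXL2C134W against Vectors (842 and 2041 by edgeR). Between the forms it called 1714 (1560). With transcript length offsets these were 496, 971 and 764, fewer than by edgeR. The study itself tested with DESeq2. IGF2, at 41 to 127 counts, is the gene most limited by depth.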
